A study of Homo sapiens with 6 samples.

Results

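The clustered histone genes were described in polyadenylated RNA of cells labelled LoVo, a human colorectal cancer line, after knockdown of the long noncoding RNA *SNHG15*. Members were chosen by name: rows of the count table whose identifier belongs to a protein-coding gene with an older symbol that starts with HIST1H, HIST2H, HIST3H or HIST4H. The family was proposed with its differences between siRNA and scramble libraries already known, so the counts that chose it also underlie those differences, which are given here as a description. By this rule 39 of the 63677 rows could be named as such genes. GENCODE release 44 lists 68 genes of this kind, and its identifiers of the other 29 were not among the rows. Some of the 29 may stand in the table under older identifiers, since 8012 rows have no entry in that release, and 1 that does (HIST1H2BH) is described apart.

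The 6 libraries were made from 2 conditions, with 3 replicates each. Cells of both conditions were transfected with Lipofectamine at 25 nM siRNA for 48 h, with a combination of both *SNHG15* siRNAs in the knockdown and a scramble siRNA in the control. The study's methods call the replicates biological. All came from 1 cell line, and whether they were grown on separate days is not given in the sources used here, so the tests measure the spread between these libraries. Libraries were stranded, prepared from poly(A)-selected RNA and sequenced as paired ends of 75 bases.

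The libraries held between 3446922 and 10256710 counts, and scramble replicate 3 was the shallowest. *SNHG15* itself was at 290, 277 and 261 CPM (counts scaled to library size) under scramble and at 77.2, 83.1 and 87.2 CPM under knockdown, so that 29.9% remained. The labelled cell type was checked against 11 markers of colorectal epithelium, of which 4 (*KRT8*, *KRT18*, *CDX2* and *CDH1*) reached a mean of 1 CPM. *KRT19*, *KRT20*, *CDX1* and *VIL1*, markers of intestinal or simple epithelium, had 0 counts in all 6 libraries. The summed level of the 11 markers was 102 to 110.4 CPM in scramble and 106 to 117 CPM in siRNA libraries, and why defining markers were absent was not tested. Sums over 6 fibroblast markers (0.234 to 1.25 CPM) and 5 leukocyte markers (0 to 0.139 CPM) were low in all libraries.

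Histones are the proteins around which DNA is wound. H2A, H2B, H3 and H4 form the core of the nucleosome, and linker histone H1 binds where DNA enters and leaves it. Most copies of these genes lie in clusters, have no introns and are transcribed mainly during S phase, when new DNA must be packaged. Their mRNAs are unusual in that they end in a conserved stem-loop, bound by the stem-loop binding protein SLBP, instead of a poly(A) tail. A poly(A)-selected library therefore takes up mainly those histone transcripts that run past the stem-loop to a polyadenylation site, or that are tailed in some other way, and the values below are levels in polyadenylated RNA rather than of histone mRNA as a whole.

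The stem-loop is shown because it is the feature that separates these transcripts from other mRNAs. It consists of a stem closed by paired G and C bases around a loop of 4 bases rich in T. The sequences of the 7 members described in most detail are given 5′ to 3′ on the sense strand, on GRCh37, with the stem-loop in capitals and the 5 bases on each side in lower case.
H2BC12 (chr6:27114140-27114165, minus strand): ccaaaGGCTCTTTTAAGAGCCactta
H2BC5 (chr6:26158810-26158835, plus strand): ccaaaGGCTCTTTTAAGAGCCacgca
H2AC6 (chr6:26124892-26124917, plus strand): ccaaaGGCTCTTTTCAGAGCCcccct
H1-2 (chr6:26055967-26055992, minus strand): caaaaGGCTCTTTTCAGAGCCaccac
H2AC20 (chr1:149858936-149858961, plus strand): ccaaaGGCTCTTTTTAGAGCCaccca
H4C3 (chr6:26104540-26104565, plus strand): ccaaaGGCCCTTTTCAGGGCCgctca
H3C4 (chr6:26197012-26197037, minus strand): ccaaaGGCTCTTTTCAGAGCCaacca

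A script searched the 200 bases after each annotated stop codon, on the sense strand, for 2 G, any 2 bases, CTTTT, any base, AG, any 2 bases and 2 C. All 39 members held a match, 23 to 68 bases after the stop codon (median 37). Of 19833 protein-coding genes 67 held one (0.338%), and only 2 of the 19765 genes outside the clusters did, *H2AX*, a histone variant that marks DNA breaks, and *TIPARP*, an ADP-ribosyltransferase. The commonest form, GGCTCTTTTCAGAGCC, was found in 22 of the 39 members, and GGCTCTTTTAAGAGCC, the form of *H2BC12* and *H2BC5*, in 8. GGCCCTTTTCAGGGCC was found in 5 members, each of them an H4 gene.

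The 39 members comprised 6 H1, 9 H2A, 10 H2B, 7 H3 and 7 H4 genes, with 24 on chromosome 6, 14 on chromosome 1 and 1 on chromosome 12. Together they collected 17503 counts over the 6 libraries, which were very unequally spread. The genes *H1-2* with 5523 counts, *H2BC12* with 4842, *H4C3* with 3269 and *H2AC20* with 1190, held 84.7% of the total. At the other end, 11 members had 0 counts in every library, among them *H1-1*, *H1-6*, *H1-5*, *H2AC1* and *H2BC1*. A count of 0 allows up to 3 counts, which corresponds to between 0.298 and 0.907 CPM in a library, counting error only. *H1-6* and *H2BC1* encode testis histones. In all, 18 members were at or under 3 counts in each of the 6 libraries, and no fold is given for them.

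**Figure D1:**
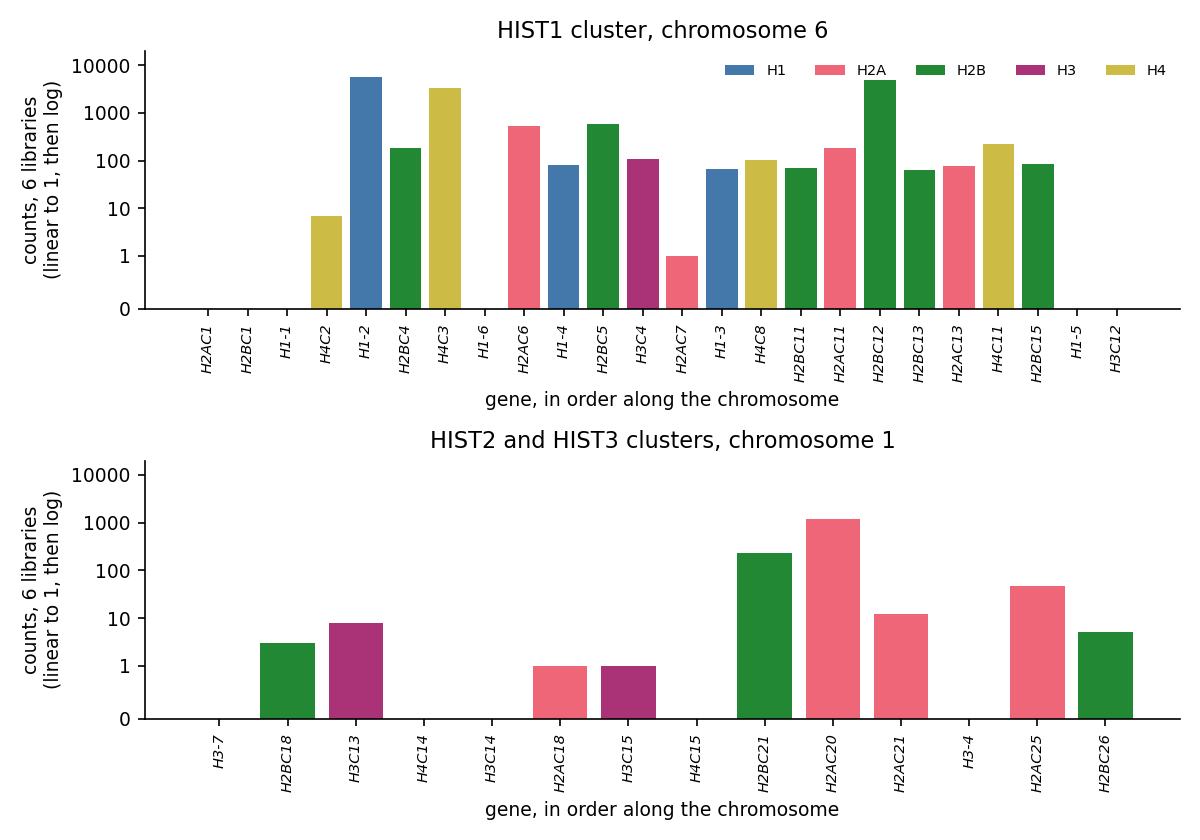
Counts of 38 members summed over the 6 libraries (vertical axis, linear to 1 and logarithmic above), in order along chromosomes 6 and 1 and coloured by histone class. The bars of *H1-2*, *H4C3* and *H2BC12* on chromosome 6 and of *H2AC20* on chromosome 1 are the tallest, and genes without a bar had 0 counts.

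Some low counts stood beside near-identical copies. For 8 members more than 50% of the 75-base windows of their exons also occurred in exons of other clustered histone genes. Of these, 2 had enough counts to be tested, *H4C11* (91.4%) and *H2AC13* (61.3%). *H4C14*, *H4C15* and *H3C15*, which shared all of their windows, and *H3C14* (99.1%) had 0, 0, 1 and 0 counts in all. How reads that fit several genes were counted is not given in the sources used here, so values of these 8 genes are uncertain. With other clustered histone genes, the exons of 28 members shared under 10% of their windows, including *H2BC12* (5.94%), *H2BC5* (1.68%), *H2AC6* (0.0%), *H1-2* (0.0%) and *H4C3* (0.0%). Windows shared with genes outside the clusters were not searched.

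Per kilobase of exon, averaged over all libraries, *H2BC12* was the highest member at 222 CPM per kilobase, followed by *H4C3* at 175 and *H1-2* at 170.0, with *H2AC20* at 54.8. The most abundant H3 member, *H3C4*, stood at 5.001 CPM per kilobase. For scale, 12 histone genes listed as replication-independent, whose mRNAs are generally polyadenylated, were spread widely. *H2AZ1*, a histone H2A variant placed at promoters, was the highest at 551 CPM per kilobase, followed by *H3-3B*, which encodes histone H3.3, at 188. The others ran from 0 (*H2AJ*) to 93.0 (*H2AX*, which also holds the stem-loop), with *H3-3A* at 0.31.

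**Figure D2:**
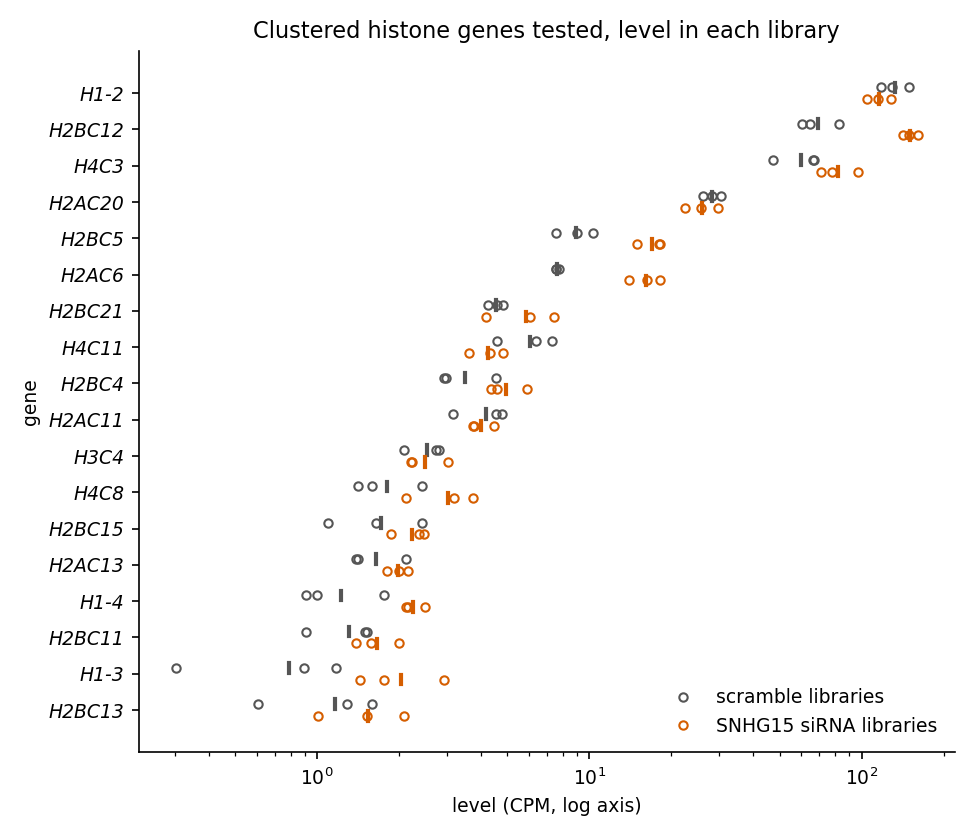
Level of each of the 18 tested members in each library (horizontal axis, CPM on a log axis), with scramble libraries in grey, *SNHG15* siRNA libraries in orange and vertical ticks at the group means. For *H2BC12*, *H2AC6* and *H2BC5* the siRNA libraries all lie to the right of the scramble libraries, whereas for *H1-2* and *H2AC20* they overlap.

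The comparison asked which genes differ between cells with *SNHG15* knocked down and scramble controls. With edgeR's quasi-likelihood test over 12507 genes, 3 of the 18 members with enough counts passed an adjusted p (Benjamini-Hochberg over all genes tested) of 0.05, all of them higher in the knockdown. Over all genes tested 5.36% passed (392 higher and 279 lower), and 3.13% passed as higher. No member was called lower by edgeR or by DESeq2, and at an unadjusted p under 0.05 there were 8 members higher and 0 lower, beside 22.5% of all genes tested in either direction and 12% higher. The median log2 fold change of the 18 was 0.40, beside 0.0005 over all genes tested, with 13 members above zero and 5 below (*H3C4*, at -0.01, was above zero with upper-quartile scaling). In 6 members the 3 siRNA libraries all lay above the 3 scramble libraries and in none below, beside 28.8% of all genes tested whose groups did not overlap in either direction. The other 21 members did not pass the filter on low counts. A gene near that filter can pass through the group in which it is higher, so these numbers do not describe the family as a whole. *H1-3* was such a gene, with 10, 9 and 1 counts in scramble and 21, 10 and 15 in siRNA libraries. So was *H1-4*, with 15, 10 and 3 against 18, 15 and 18. Both are counted in the 8, the 13 and the 6 above and enter the median. *H2BC15* (14, 11 and 8 against 17, 13 and 21) and *H2BC11* (13, 15 and 3 against 10, 11 and 17) also passed only through their siRNA libraries. *H2BC13* (11, 16 and 2 against 15, 7 and 13) passed only with libraries of both groups together. These H2B genes are counted in the 13 and enter the median. In bulk RNA, a change in the share of cells that express these genes and a change of RNA per cell cannot be told apart.

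**Figure D3:**
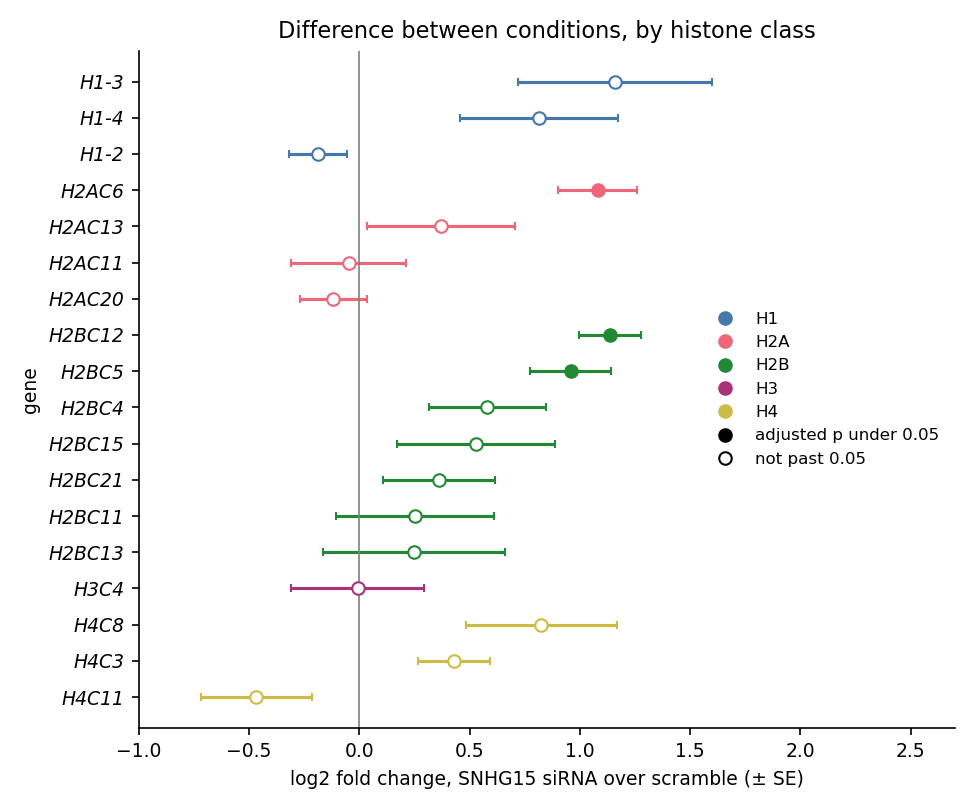
Log2 fold change of each tested member, *SNHG15* siRNA over scramble, with its standard error as bars (horizontal axis), grouped by histone class. Filled points are the 3 genes with an adjusted p under 0.05, and the 7 H2B genes all lie above zero. Of the 7, *H2BC15* and *H2BC11* passed the filter on low counts only through their siRNA libraries.

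Among H2B genes, 7 of 10 were tested and 2 were called, both higher, beside 3.13% called higher over all genes tested. *H2BC12* (ENSG00000197903, older symbol HIST1H2BK, chr6:27114140-27114634, 1 exon, minus strand) encodes an H2B of the nucleosome core. Its scramble libraries held 552, 607 and 272 counts and its siRNA libraries 1021, 1117 and 1273, that is 64.7, 60.4 and 82.3 CPM against 142, 161 and 149.5 CPM. The groups did not overlap, and the lowest siRNA library was above the highest scramble library. Its mean level was 69.1 ± 11.6 CPM (SD, n = 3) in scramble and 151 ± 9.61 CPM (SD, n = 3) in siRNA libraries, a 2.20-fold difference (log2 fold change 1.14, SE 0.14, edgeR adjusted p = 0.001765). It was called in each of the 6 fits that left out 1 library, with log2 fold changes from 1.05 to 1.26.

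*H2BC5* (ENSG00000158373, HIST1H2BD, chr6:26158350-26171577, up to 2 exons, plus strand) was at 9.02, 7.56 and 10.28 CPM in scramble and at 18.2, 18.0 and 14.9 CPM in siRNA libraries. All 3 siRNA libraries were again above all scramble libraries. The means were 8.95 ± 1.36 and 17.0 ± 1.82 CPM (SD, n = 3 each), and the log2 fold change was 0.96 (SE 0.18, edgeR adjusted p = 0.01086). Without scramble replicate 1 its adjusted p was 0.0517 and without scramble replicate 2 it was 0.0783, so the number of members called fell to 2 in these 2 fits. *H2BC4*, *H2BC15*, *H2BC21*, *H2BC11* and *H2BC13*, the other tested H2B genes, had log2 fold changes of 0.58, 0.53, 0.36, 0.25 and 0.25, with standard errors from 0.26 to 0.41, and none passed the threshold. The value of *H2BC13*, with 64 counts in all, was -0.020 without siRNA replicate 1. The scramble libraries of *H2BC15*, *H2BC11* and *H2BC13* alone would not have carried them past the filter on low counts. Exons of *H2BC4* overlap those of *HFE* and ENSG00000291336 on the opposite strand (890 bases summed over both). The strand setting of the counting is not given, so reads of these genes may not have been told apart.

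One more H2B row stood outside the 39, since GENCODE release 44 does not list its identifier. ENSG00000197459 is named HIST1H2BH only in the study's list of changed genes, so it was selected on its change and gets no test. It had 551, 520 and 219 counts in scramble and 230, 250 and 303 in siRNA libraries, that is 64.6, 51.7 and 66.2 CPM against 31.9, 35.96 and 35.6 CPM. This gene was lower in every siRNA library, with a log2 fold change of -0.81 (SE 0.14), opposite in sign to the fitted values of all 7 tested H2B members. Of those 7, *H2BC15* and *H2BC11* had entered the test only through their siRNA libraries, so their shared sign partly follows from the filter.

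Among H2A genes, *H2AC6* (ENSG00000180573, HIST1H2AC, chr6:26124373-26139344, up to 2 exons, plus strand) was at 7.73, 7.56 and 7.56 CPM in scramble and at 14.0, 18.1 and 16.3 CPM in siRNA libraries. The scramble libraries lay close together and every siRNA library was above them. The means were 7.62 ± 0.101 and 16.2 ± 2.07 CPM (SD, n = 3 each), a 2.12-fold difference (log2 fold change 1.08, SE 0.18, edgeR adjusted p = 0.00575), and it was called in each of the 6 fits without 1 library. Over 27 bases its exons overlap those of ENSG00000291336 on the same strand, where reads of these genes cannot be told apart. *H2AC20* (ENSG00000184260, HIST2H2AC, chr1:149858468-149858961, 1 exon, plus strand), with more than 2 times the counts of *H2AC6*, was at 28.2, 26.1 and 30.5 CPM against 22.5, 29.6 and 25.6 CPM. These groups overlapped and the log2 fold change of -0.12 (SE 0.15) did not pass (edgeR adjusted p = 0.692). *H2AC13* and *H2AC11* were at log2 fold changes of 0.37 (SE 0.34) and -0.05 (SE 0.26).

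None of the 3 tested linker histone genes passed. *H1-2* (ENSG00000187837, HIST1H1C, chr6:26055968-26056698, 1 exon, minus strand), the member with the most counts, was at 149.5, 118 and 129 CPM in scramble and at 105, 128 and 115 CPM in siRNA libraries. The groups overlapped, and the means of 132 ± 15.9 and 116 ± 11.7 CPM (SD, n = 3 each) gave a log2 fold change of -0.19 (SE 0.13, edgeR adjusted p = 0.426). *H1-3* and *H1-4*, with 66 and 79 counts in all, had log2 fold changes of 1.16 (SE 0.44) and 0.81 (SE 0.36) and siRNA libraries above all scramble libraries, but neither passed the adjusted threshold (adjusted p = 0.1397 and 0.2000 by edgeR), and neither had 10 counts in every library. Their scramble libraries alone would not have carried either past the filter on low counts. At this depth counting alone gives standard errors of 0.39 and 0.34 for these 2 genes.

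For H4, *H4C3* (ENSG00000197061, HIST1H4C, chr6:26104161-26104565, 1 exon, plus strand) was at 67.0, 66.0 and 47.2 CPM in scramble and at 78.1, 70.6 and 96.7 CPM in siRNA libraries. The siRNA libraries were all above the scramble libraries, with means of 60.1 ± 11.2 and 81.8 ± 13.4 CPM (SD, n = 3 each), but the log2 fold change of 0.43 (SE 0.16) did not pass (edgeR adjusted p = 0.1392). *H4C8* and *H4C11* were at 0.83 (SE 0.34) and -0.47 (SE 0.25), and neither passed. Over 287 bases the exons of *H4C8* overlap those of ENSG00000289447 on the opposite strand, and the strand setting of the counting is not given. Of 7 H3 members only *H3C4* (ENSG00000197409, HIST1H3D, chr6:26197012-26197514, 1 exon, minus strand) was tested. It was at 2.81, 2.09 and 2.72 CPM against 2.22, 3.02 and 2.23 CPM, overlapping groups with a log2 fold change of -0.01 (SE 0.30), whose sign turned with upper-quartile scaling (0.03). Over 486 bases its exons overlap those of ENSG00000282988 on the same strand, where reads of these genes cannot be told apart.

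**Figure D4:**
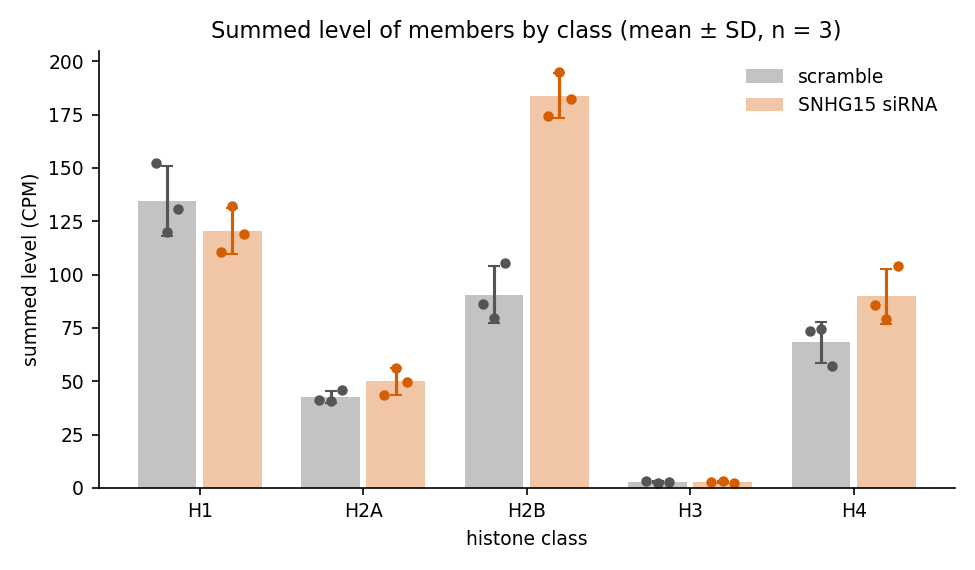
Summed level of the members of each histone class in each library (vertical axis, CPM), with points for libraries, bars for means and error bars for the SD of 3 libraries. H2B lies at 90.5 and 184 CPM and H4 at 68.3 and 89.8 CPM (scramble and siRNA means), both without overlap. The H1, H2A and H3 groups overlap. The row named HIST1H2BH is not in the sums.

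Summed over all 39 members, the level was 357, 317 and 342 CPM in scramble and 417, 466 and 457 CPM in siRNA libraries, or 339 ± 19.9 and 447 ± 25.9 CPM (SD, n = 3 each). The H2B sum went from 90.5 ± 13.4 to 184 ± 10.4 CPM, of which *H2BC12* made up 69.1 and 151 CPM, and the H4 sum was 68.3 ± 9.64 against 89.8 ± 12.7 CPM. The H1 sum was 134 ± 16.5 against 121 ± 10.9 CPM, the H2A sum 42.7 ± 2.87 against 49.9 ± 6.29 CPM and the H3 sum 2.75 ± 0.281 against 2.63 ± 0.395 CPM. Each sum is carried by a few genes. With the row named HIST1H2BH added, which was chosen after seeing the data, the H2B sum was 151 ± 20.2 against 218 ± 12.4 CPM and the sum over all members 399 ± 27.2 against 481 ± 28.1 CPM (SD, n = 3 each), so the H2B ratio was 1.44 instead of 2.03. Without *H1-2*, the H1 sum was 2.01 in scramble and 4.29 CPM in siRNA libraries, and the sum over all members 206 and 331 CPM.

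Members also differ in where their annotated transcripts end. For 16 of the 39, at least 1 transcript runs 285 to 37155 genomic bases past the stem-loop, often through a splice, while the other 23 end within 3 to 8 bases of it. Of the 16, 7 were tested and all 7 had positive log2 fold changes, from 0.25 to 1.08 (median 0.58), with 2 called, *H2AC6* and *H2BC5*. Of the 23, 11 were tested, 6 were positive and 1 was called, *H2BC12*, with values from -0.47 to 1.16 (median 0.25). Over all genes tested 3.13% were called higher, and 6260 of 12507 had positive log2 fold changes. In the first group, *H2BC15* and *H2BC11* passed the filter on low counts only through their siRNA libraries. That all 7 were positive therefore partly follows from the filter. Some positive members of the 11 had passed in the same way, among them the one at 1.16. All but *H2AC6* and *H4C8* of the 7 in the first group are H2B genes, so transcript end and class cannot be told apart, and no test was made. Most counts, 15654 of 17503, fell on the genes whose annotation stops at the stem-loop, and which of these reads came from transcripts with a tail past that point was not tested. Extended 3′ ends are those of GENCODE release 44, which may differ from the annotation used for counting.

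**Figure D5:**
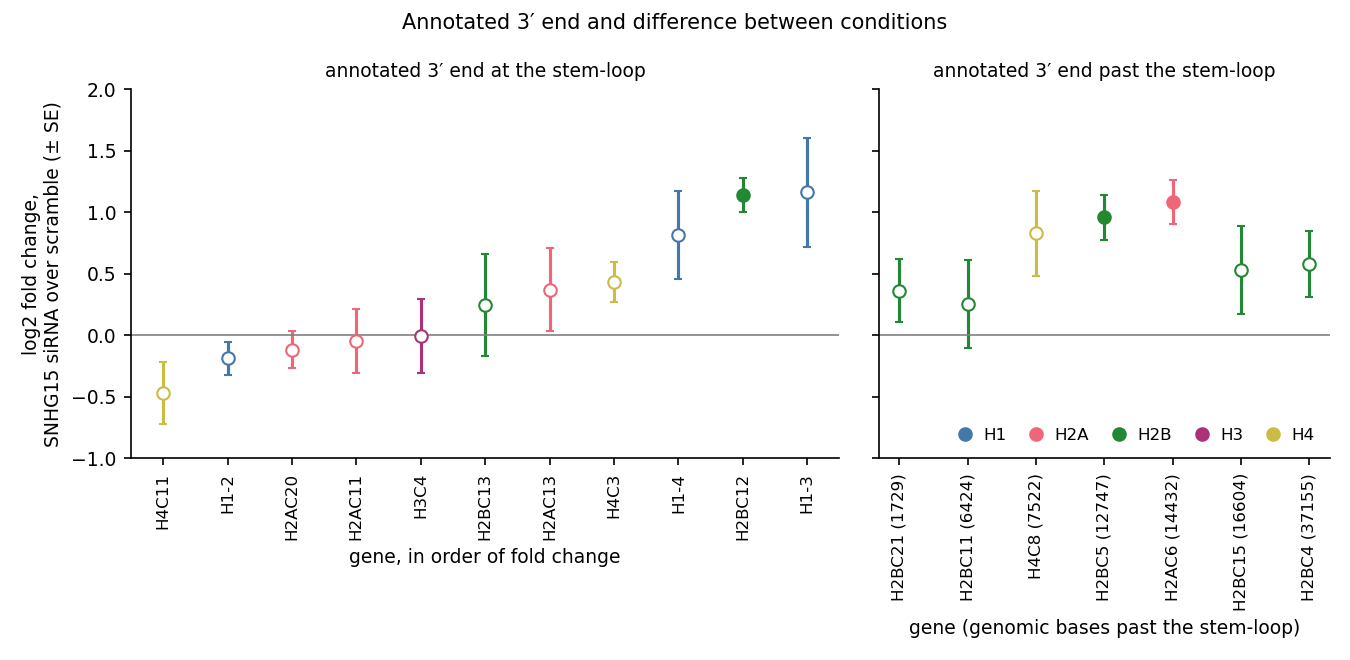
Log2 fold change with its standard error (vertical axis) for the 11 tested members whose annotation ends at the stem-loop (left) and the 7 whose annotation runs past it (right, with the genomic bases past the stem-loop in parentheses), coloured by class. Points on the right all lie above zero and points on the left on both sides of it, and filled points passed an adjusted p of 0.05. On the right, *H2BC15* and *H2BC11* passed the filter on low counts only through their siRNA libraries, as did some genes on the left.

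Upstream, RefSeq promoter windows (GRCh38.p14, 250 bases before to 50 after the start) were matched for 37 members and searched on both strands. ATTTGCAT, the octamer bound by OCT1 and known from H2B promoters, was found in 13 of 37 (35.1%), against 1.802% of 27305 promoters. It was in 6 of 10 H2B and 6 of 9 H2A genes, in none of 6 H1 or 6 H4 genes and in 1 of 6 H3 genes, *H3C4*, to which RefSeq gives the same start as *H2AC7*. CCAAT was found in 31 of 37 members (35.7% of all promoters), the exceptions being the 6 H4 genes, and TATAAA in 25 of 37 (11.95% of all promoters). H2A and H2B genes often lie head to head, and the octamers of *H2AC6* and *H2BC4* are the same bases read on opposite strands, as are those of *H2AC20* and *H2BC21* and of *H2AC11* and *H2BC11*. The stretches are shown, octamer in capitals on the strand of the H2B gene, because the values of partners that share an octamer are set side by side next. That of *H2BC12*, whose octamer no other member shares, is shown beside them.
H2BC12 (chr6:27146886-27146915): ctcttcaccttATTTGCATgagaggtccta
H2BC4, shared with H2AC6 (chr6:26124031-26124060): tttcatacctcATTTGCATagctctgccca
H2BC21, shared with H2AC20 (chr1:149886710-149886739): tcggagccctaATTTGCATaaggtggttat
H2BC11, shared with H2AC11 (chr6:27132824-27132853): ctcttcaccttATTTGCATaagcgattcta

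On the log2 scale *H2AC6* was at 1.08 and its partner *H2BC4* at 0.58, while *H2BC21* was at 0.36 and *H2AC20* at -0.12, and *H2BC11* at 0.25 and *H2AC11* at -0.05. The differences within pairs were not tested. Among the tested H2B genes, the octamer was in the windows of *H2BC12*, which was called, and of *H2BC4*, *H2BC21* and *H2BC11*, which were not. *H2BC5*, which was called, and *H2BC13* and *H2BC15*, which were not, had none.

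Of 17 genes for histone mRNA 3′ processing and decay, 16 were tested and 0 passed in edgeR with the filter on low counts (5.36% over all genes), with 2 at an unadjusted p under 0.05 (22.5% over all genes). *SLBP* was called lower by DESeq2 and by edgeR without the filter. *SLBP* was at 339 ± 1.09 CPM in scramble and 246 ± 38.1 CPM in siRNA libraries (SD, n = 3 each), all siRNA libraries below. Its log2 fold change was -0.46 (SE 0.13), with an edgeR adjusted p of 0.0612, a DESeq2 adjusted p of 0.0222 and an edgeR adjusted p without the filter of 0.0136. Of 10 genes for histone gene transcription 0 were called by edgeR or DESeq2, with 3 at an unadjusted p under 0.05 (22.5% over all genes). *NPAT*, the cyclin E/CDK2 substrate that activates histone genes in S phase, was at 2.09 ± 1.55 against 2.74 ± 1.60 CPM (SD, n = 3 each). The groups overlapped and the log2 fold change was 0.22 (SE 0.49).

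Of the 12 histone genes outside the clusters that were listed as replication-independent, 10 were tested. At an adjusted p under 0.05, 1 rose and 5 fell, beside 3.13% higher and 2.23% lower over all genes tested. *H2AZ1* was at 1492 ± 59.5 CPM in scramble and 1008 ± 149 CPM in siRNA libraries (SD, n = 3 each), a log2 difference of -0.57 (SE 0.13, edgeR adjusted p = 0.0240). *MACROH2A1*, a large H2A variant of repressed chromatin, had a log2 fold change of -0.59 (SE 0.14). *CENPA*, the H3 variant of centromeres, and *H1-10*, a linker histone, also fell, at -0.62 (SE 0.16) and -0.47 (SE 0.12). The gene that rose was *H2AX*, the sole one of the 12 with the stem-loop, with 122 ± 17.7 CPM in scramble and 174 ± 10.0 CPM in siRNA libraries (SD, n = 3 each) and a difference of 0.51 on the log2 scale (SE 0.13, edgeR adjusted p = 0.0438). Each of the 5 calls named here was lost in 4 or 5 of the 6 fits that left out 1 library, including those without scramble replicate 1 or 2, and *H2AX* also missed the threshold with the GC offset (edgeR adjusted p = 0.0831). *H1-10* missed it with upper-quartile scaling (0.0564), and with at least 10 counts required in every library *H1-10* and *CENPA* did (adjusted p = 0.0543 and 0.0534 by edgeR).

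Of 23 histone chaperone genes 22 were tested, and 1 rose and 1 fell in edgeR (5.36% called over all genes), while DESeq2 called 1 higher and 2 lower. *CHAF1B*, a subunit of the CAF-1 complex that deposits H3 and H4 behind the replication fork, fell from 103 ± 3.00 to 58.7 ± 7.72 CPM (SD, n = 3 each). Its log2 fold change was -0.81 (SE 0.13, edgeR adjusted p = 0.00569). *ATRX*, which acts with DAXX to deposit H3.3, rose from 4.20 ± 1.803 to 10.2 ± 1.54 CPM (SD, n = 3 each). The difference was 1.20 on the log2 scale (SE 0.27, edgeR adjusted p = 0.0208), but its adjusted p was 0.127 without scramble replicate 2 and 0.0707 without scramble replicate 3. The remaining 20 tested chaperone genes had log2 fold changes between -0.41 and 0.35.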

How the data were processed

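Per the labels, poly(A)-selected stranded libraries were sequenced as 75-base paired ends. The authors deposited whole-number read counts per gene on hg19. The study's methods name bowtie2, whereas the submitters' processing notes list STAR and featureCounts. Versions, annotation release, strand setting and treatment of multi-mapped reads are not given in the sources used here.

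Counts were fitted over all genes with edgeR 4.0.16 (quasi-likelihood test, TMM, filterByExpr, R 4.3.3), which left 12507 of 63677 genes, and adjusted by Benjamini-Hochberg. CPM uses TMM library sizes over tested genes. DESeq2 1.42.0, other scalings, filters, GC and length offsets and leaving out each library were alternatives. The fit was tested on simulated counts. Names, exons and stem-loops came from GENCODE 44 on GRCh37 (hg19), and older symbols and promoters from RefSeq.

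Named members were those called, those with a mean of at least 100 counts, the most abundant of each class per kilobase and up to 5 without counts. In other lists they were up to 3 called genes, *SLBP*, *NPAT* and *H2AZ1*. All other genes, such as *H2AX*, *H1-10* and *CENPA*, were named after their values were seen. The members and lists were chosen with earlier results of these data known. The result for 1 gene of these lists is not reported here.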

Additional observations from a re-analysis of the deposited data

How the results depend on the processing

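The same number of members, 3, was called under each of the 9 alternatives that kept all libraries, and 2 to 3 when 1 library was left out (2 without scramble replicate 1 or 2). The number of all genes called was 671, 1312 without a filter (685 higher, 627 lower) and 139 to 812 when 1 library was left out. Upper-quartile scaling gave 515 higher and 230 lower, and moved the median of all genes to 0.04. The median log2 fold change of tested members, 0.40, ran from 0.33 to 0.51 when 1 library was left out, where up to 19 members were tested. Sums without *H1-2* were 206 and 331 CPM over all members and 2.01 and 4.29 CPM over H1 (scramble and siRNA). With the row named HIST1H2BH, an alternative added after seeing the data, they were 399 and 481 CPM over all members and 151 and 218 CPM over H2B.

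Signs turned for *H3C4* (0.032 with upper-quartile scaling, 0.0032 with the replicate block and -0.16 to 0.11 when 1 library was left out) and, when 1 library was left out, for *H2AC11* (-0.24 to 0.13), *H2BC13* (-0.020 to 0.52) and *NPAT* (-0.37 to 1.19). None of these was called in any fit, and the cause was not tested.

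Replicate numbers are shared between the conditions, but residuals of same-numbered libraries correlated at -0.07, 0.16 and -0.04, so they were taken as names only. With the replicate block 543 genes and 3 members were called, and *H1-10* and *CENPA* lost their call (adjusted p = 0.0667 and 0.0749 by edgeR). With the replicate block and the GC offset together, *H2AX* and *CENPA* did (adjusted p = 0.0970 and 0.0658 by edgeR). Depth limits what the low members can show: the standard errors of tested members ran from 0.13 to 0.44, and counting alone gives 0.039 to 0.39.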
